A study of Mus musculus with 24 samples.

Results

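Nerve terminals release transmitter through a shared machinery, and 42 genes of that machinery were followed here across 4 mouse brain regions and a circular RNA knockout. The genes were listed by name: 12 synaptotagmins, the SNARE genes Stx1a, Snap25, Vamp1 and Vamp2, 3 complexins, 10 genes of the vesicle membrane and its surface, 8 genes of the active zone, 3 Rab3 genes and the glutamate loaders Slc17a6 and Slc17a7. All 42 were matched by symbol to 1 Ensembl ID each, among 37621 features per library, and all 42 passed the filter on low counts in every comparison.

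As background, a synaptic vesicle is filled with transmitter by a transporter, held at the active zone by large scaffold proteins, primed by Munc13 and RIM proteins, and fused with the plasma membrane by SNARE proteins when a synaptotagmin senses calcium. Complexins bind the assembled SNAREs and control when they fuse. Most of these proteins come in families of related genes, and neurons of different brain regions are known to use different family members, with consequences for how fast and how reliably they release.

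Poly(A) RNA was sequenced from the dissected cerebellum, olfactory bulb, hippocampus and cortex of Cdr1as knockout (KO) and wild-type (WT) mice of the C57BL/6 strain, with 3 libraries for each region and genotype and 24 in all. Cdr1as is a circular RNA of neurons known for its many binding sites for the microRNA miR-7. The labels give no age or sex and do not say whether the 3 libraries of a group are separate animals, so p-values measure only the spread between these libraries. The labels do not describe the deleted part of the locus.

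Gene counts per library ran from 21.1 M to 40.5 M. The feature deposited for the targeted locus, Cdr1asG, had 0.115 to 1.95 CPM in the 12 KO libraries and 2.23 to 29 CPM in the 12 WT libraries, where CPM is the count scaled by TMM to a library of 1000000. Region markers followed the labels: 10 cerebellar markers summed to 8000 to 8890 CPM in the 6 cerebellum libraries and to at most 307 CPM elsewhere, and 9 bulb markers to 1350 to 1600 CPM in the bulb and at most 249 elsewhere. The 9 hippocampal markers summed to 1020 to 1470 CPM in the hippocampus and at most 423 elsewhere, and the 8 cortical markers to 634 to 730 CPM in the cortex and at most 293 elsewhere. Choroid plexus markers (10 genes) were uneven, with 1330 CPM in cerebellum KO 2, 2070 and 2410 CPM in cerebellum WT 1 and 2, 2520 and 3320 CPM in hippocampus WT 1 and 3, and at most 675 CPM in the other libraries. Striatum markers summed to 736 to 1260 CPM in KO cortex and 722 to 1330 CPM in WT cortex, and thalamus markers stood highest in hippocampus KO 2 (250 CPM) and, within the cortex, in cortex WT 3 (183 CPM). The libraries numbered 2 stood apart for some, not all, long genes in both genotypes, mostly outside the cortex, which touches Sv2c, Syn3, Pclo, Unc13c, Rims2 and Rab3c below.

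The first question was how the regions differ in their use of these genes, asked in the 12 WT libraries. Levels differed between regions for 37 of the 42 genes (edgeR quasi-likelihood F test, adjusted p under 0.05), while 67.8% of all 16729 tested genes did. Most were spread moderately: the ratio of the highest to the lowest regional mean had a median of 2.85, and it was over 2-fold in 32 genes and over 10-fold in 9. The cortex held the highest mean of 17 genes and the lowest of 0, but only 2 of the 17 differed from the next region in edgeR. The olfactory bulb held the lowest mean of 18 genes, of which 11 differed from the next region. These ranks were not computed over all genes. In tissue RNA, fewer cells of a type and less RNA per cell cannot be told apart, and this holds for every regional difference below.

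**Figure D1:**
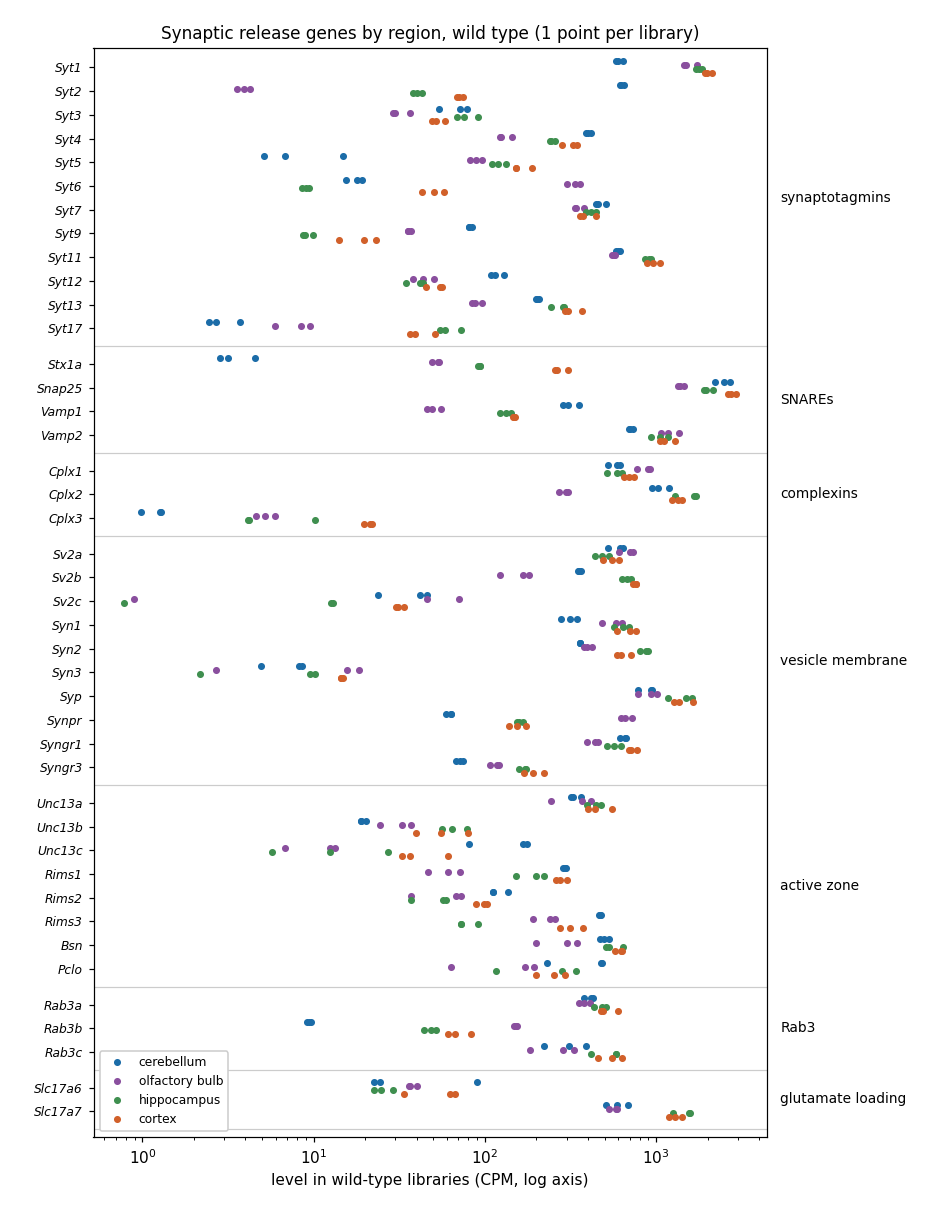
Level of each of the 42 release genes in WT libraries, in CPM on a log axis, with 1 point per library and 1 color per region; genes are grouped by role. Syt2 runs from about 4 CPM in the bulb to over 600 CPM in the cerebellum and Stx1a from about 4 CPM in the cerebellum to over 250 CPM in the cortex, while Syt7, Sv2a and Rab3a lie within a narrow band.

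Each pair of regions was compared in turn. Of the 42 genes, 18 were higher and 13 lower in the cerebellum than in the bulb (46.4% of all genes were called, 22.7% higher and 23.7% lower), and 11 were higher and 19 lower than in the hippocampus (49.0%, 24.3% higher and 24.7% lower). Against the cortex, 7 were higher and 21 lower in the cerebellum (53.7%, 26.5% higher and 27.3% lower). The bulb exceeded the hippocampus in 7 genes and lay below it in 21 (40.9% of all genes, 19.9% higher and 20.9% lower). The bulb exceeded the cortex in 5 genes and lay below it in 27 (44.3%, 21.6% higher and 22.7% lower). The closest pair was hippocampus and cortex, with 2 genes higher and 12 lower in the hippocampus (13.5%, 5.49% higher and 8% lower). That last count was the least stable, at 8 without cortex WT 3, the library rich in thalamus markers (9.01% of all genes), 9 without hippocampus WT 2 (10.7%) and 7 without the libraries rich in choroid plexus markers (5.21%). Over all 6 pairs, leaving those out took the call from 27 of 252 comparisons of a gene and a pair and added 3; it leaves 1 WT library in the cerebellum and 1 in the hippocampus.

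Among the calcium sensors, the fast pair Syt1 and Syt2 were divided by region. Syt1, the main sensor of forebrain synapses, had 642, 601 and 580 CPM in the cerebellum, 1740, 1490 and 1460 CPM in the bulb, 1860, 1790 and 1720 CPM in the hippocampus and 2120, 1990 and 1940 CPM in the cortex. Syt2, the sensor known from fast hindbrain and cerebellar synapses, had 646, 626 and 618 CPM in the cerebellum, 4.24, 3.56 and 3.9 CPM in the bulb, 39.9, 38.2 and 42.9 CPM in the hippocampus and 68.3, 74.2 and 71 CPM in the cortex. Syt1 was thus lowest and Syt2 highest in every cerebellar library. Syt2 was 161-fold higher in the cerebellum than in the bulb by its means (log2 7.33, SE 0.091, edgeR adjusted p = 3.13e-12), and all 6 region pairs differed. Per length of exon, Syt2 made up 53.1% ± 0.697 (SD, n = 3) of the summed Syt1 and Syt2 level in the cerebellum, 0.273% ± 0.0168 in the bulb, 2.4% ± 0.213 in the hippocampus and 3.72% ± 0.279 in the cortex.

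Syt6 was highest in the bulb, and Syt9, like Syt2, in the cerebellum. Syt6, a relative of the vesicular sensors that is not known as a fast sensor, had 359, 336 and 301 CPM in the bulb, against 8.58, 9.35 and 9.08 CPM in the hippocampus (log2 5.21, SE 0.12, edgeR adjusted p = 6.73e-10), with 15.5 to 19.1 CPM in the cerebellum and 42.8 to 57.6 CPM in the cortex. Every bulb library lay above every other library. Syt9, a fast sensor described in limbic and striatal neurons, had 81.3, 84.3 and 80.4 CPM in the cerebellum, 37.2, 35.7 and 35.4 CPM in the bulb, 8.7, 8.86 and 9.93 CPM in the hippocampus and 19.7, 14 and 23 CPM in the cortex. The 4 regions did not overlap for Syt9, and all 6 pairs were called with all libraries. Its hippocampus and cortex pair lost the call without the libraries rich in choroid plexus markers (-1.06, edgeR adjusted p = 0.0563).

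Syt5 and Syt17 were lowest in the cerebellum. Syt5, a vesicle sensor related to Syt1, averaged 8.95 ± 5.21 CPM in the cerebellum, 89 ± 7.07 CPM in the bulb, 121 ± 11.6 CPM in the hippocampus and 163 ± 20.9 CPM in the cortex (SD, n = 3 each). Its cerebellar value was uneven, with 14.9, 6.84 and 5.13 CPM, and neighbours among the other 3 regions did not differ past the threshold. Syt17, a trafficking synaptotagmin that lacks a transmembrane segment, averaged 2.95 ± 0.665 CPM in the cerebellum, 7.99 ± 1.83 in the bulb, 61.6 ± 9.26 in the hippocampus and 42.3 ± 7.83 in the cortex (SD, n = 3 each). Its cerebellar level was far below that of the hippocampus (log2 -4.39, SE 0.21, edgeR adjusted p = 2.62e-08), and the bulb too lay below the hippocampus and cortex.

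The remaining synaptotagmins had spans of at most 3.6-fold between the highest and lowest region. Syt4, which lacks calcium binding in its first C2 domain and is induced by activity, averaged 402 ± 13.9 CPM in the cerebellum, 130 ± 12.3 in the bulb, 247 ± 8.39 in the hippocampus and 317 ± 31.3 in the cortex (SD, n = 3 each), and all 6 pairs were called, although the hippocampus and cortex pair lost its call in 5 of the runs that left out 1 library. Without the libraries rich in choroid plexus markers, Syt4 lost its calls for cerebellum and cortex (0.41, edgeR adjusted p = 0.0866) and for hippocampus and cortex (-0.36, 0.332). Syt12 was higher in the cerebellum (118 ± 11 CPM) than in the bulb (44.2 ± 6.32), hippocampus (39.9 ± 4.83) and cortex (52.3 ± 5.91), whose neighbours in the order did not differ past the threshold. Syt13 averaged 89.4 ± 6.04 CPM in the bulb and 202 to 322 CPM in the other 3 regions, and Syt3 31.7 ± 4.08 CPM in the bulb and 53 to 78.2 CPM elsewhere. Syt11, which does not bind calcium, was lower in the cerebellum (599 ± 16.8 CPM) and bulb (566 ± 9.93) than in the hippocampus (900 ± 35.1) and cortex (966 ± 82.4). Syt7, the slow, high-affinity sensor of asynchronous release and facilitation, had the flattest profile of the 42: 471 ± 34.3 CPM in the cerebellum, 351 ± 23.6 in the bulb, 419 ± 28.5 in the hippocampus and 393 ± 45.1 in the cortex, a 1.34-fold span. With all libraries, edgeR called its cerebellum and bulb pair (log2 0.42, adjusted p = 0.00558), which lost its call without the libraries rich in choroid plexus markers (0.34, 0.179). Its cerebellum and cortex pair and its bulb and hippocampus pair passed under several other settings.

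In the fusion machinery, Stx1a had the widest range. Stx1a, a plasma membrane SNARE, had 4.57, 2.85 and 3.16 CPM in the cerebellum, 48.9, 54.3 and 53.3 CPM in the bulb, 91, 93.4 and 93.8 CPM in the hippocampus and 304, 256 and 264 CPM in the cortex. The 4 regions did not overlap, all 6 pairs were called, and the cerebellum lay below the cortex (log2 -6.29, SE 0.14, edgeR adjusted p = 1.78e-10).

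Snap25, the other plasma membrane SNARE, had 2470 ± 249 CPM in the cerebellum, 1380 ± 57.2 in the bulb, 2010 ± 122 in the hippocampus and 2760 ± 159 in the cortex. The vesicle SNAREs differed in opposite directions. Vamp1, the synaptobrevin known from hindbrain, spinal and fast-firing neurons, had 355, 305 and 287 CPM in the cerebellum, against 45.9, 55.1 and 48.8 CPM in the bulb (log2 2.66, SE 0.10, edgeR adjusted p = 2.67e-09), with 122 to 150 CPM in the hippocampus and cortex. Vamp2, the main forebrain synaptobrevin, averaged 710 ± 17.1 CPM in the cerebellum, below the bulb (1210 ± 144), hippocampus (1050 ± 117) and cortex (1150 ± 124). Per length, Vamp1 held 14.3% ± 1.4 of the pair in the cerebellum, 1.53% ± 0.126 in the bulb, 4.5% ± 0.15 in the hippocampus and 4.63% ± 0.479 in the cortex (SD, n = 3 each).

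The complexins separated the bulb. Cplx2 had 306, 296 and 270 CPM in the bulb, against 1720, 1670 and 1290 CPM in the hippocampus (log2 -2.42, SE 0.13, edgeR adjusted p = 6.52e-08), 941 to 1190 CPM in the cerebellum and 1240 to 1410 CPM in the cortex. Cplx1 averaged 576 ± 49.4 CPM in the cerebellum, 861 ± 77.5 in the bulb, 578 ± 60.4 in the hippocampus and 695 ± 50.7 in the cortex (SD, n = 3 each). Its excess in the bulb over the cortex (log2 0.31, edgeR adjusted p = 0.041) lost its call in 7 of the runs that left out 1 library. Cplx1 made up 86.6% ± 0.456 of the family per length in the bulb and 45.4% to 55.3% in the other regions. Cplx3, known from retinal ribbon synapses and deep cortical neurons, made up at most 1.2% of the family per length, at 1.18 ± 0.169 CPM in the cerebellum, 5.25 ± 0.643 in the bulb and 21 ± 1.25 in the cortex. Its hippocampal libraries read 4.16, 4.21 and 10.2 CPM, so the hippocampal mean rested on library 3.

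On the vesicle itself, Synpr (synaptoporin), a relative of the membrane protein synaptophysin (Syp), was highest in the bulb. Synpr had 63.2, 63.7 and 59.4 CPM in the cerebellum, against 623, 718 and 657 CPM in the bulb (log2 -3.42 for cerebellum over bulb, SE 0.095, edgeR adjusted p = 2.84e-10), with 155 to 166 CPM in the hippocampus and 138 to 173 CPM in the cortex. Its share per length of the Syp and Synpr sum was 3.75% ± 0.244 in the cerebellum, 29% ± 2.42 in the bulb, 5.9% ± 0.775 in the hippocampus and 5.75% ± 1.09 in the cortex (SD, n = 3 each). Syp ran from 885 ± 89.8 CPM in the cerebellum and 905 ± 114 in the bulb to 1430 CPM in both the hippocampus and the cortex.

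The SV2 proteins, which bind synaptotagmin and steady release, were led per length of exon by Sv2a in all regions, with 55.9% to 86.6% of the family. This lead depends on the length used, with 4636 bases of exon for Sv2a and 8381 for Sv2b. By mean CPM, Sv2b exceeded Sv2a in the hippocampus (675 against 487) and the cortex (750 against 547). Sv2a averaged 590 ± 62.2 CPM in the cerebellum, 683 ± 68.1 in the bulb, 487 ± 46.2 in the hippocampus and 547 ± 58.6 in the cortex, and 1 of its 6 pairs was called. Sv2b had 349 to 364 CPM in the cerebellum, 122 to 180 CPM in the bulb, 636 to 714 CPM in the hippocampus and 731 to 762 CPM in the cortex, and its share per length was 11% ± 2.32 in the bulb and 43.3% ± 3.1 in the hippocampus. Synapsins tether vesicles to one another. Syn2 averaged 360 ± 0.92 CPM in the cerebellum, against 855 ± 48.9 CPM in the hippocampus, where it was highest, while Syn1 averaged 312 ± 33.2 CPM in the cerebellum and 565 to 688 CPM in the forebrain regions. The synaptogyrins, small vesicle proteins, differed from each other: Syngr3 averaged 71.3 ± 3.28 CPM in the cerebellum, against 194 ± 26 in the cortex (log2 -1.45, SE 0.10, edgeR adjusted p = 2.63e-07), and Syngr1 was 644 ± 27.8 CPM in the cerebellum, 430 ± 31.4 in the bulb and 724 ± 41.4 in the cortex.

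At the active zone, Munc13 proteins prime vesicles and RIM proteins tie them to calcium channels. Unc13c (Munc13-3), known from cerebellar granule cells, had 166, 81.3 and 177 CPM in the cerebellum, 13.4, 6.78 and 12.4 CPM in the bulb, 12.4, 5.73 and 27.2 CPM in the hippocampus and 36.4, 32.9 and 61.3 CPM in the cortex. Every cerebellar library lay above all others, and the cerebellum exceeded the bulb by 3.71 on the log2 scale (SE 0.53, edgeR adjusted p = 0.000423). Against the cortex (log2 1.70, edgeR adjusted p = 0.0203) the call was lost without cerebellum WT 1 (1.57, 0.0578) or 3 (1.51, 0.0653) and without cortex WT 1 (1.56, 0.0817) or 2 (1.53, 0.0675). Unc13a, the general priming factor of the forebrain, missed the threshold for a difference between regions (edgeR adjusted p = 0.0747), at 337 ± 23.6 CPM in the cerebellum, 343 ± 89.6 in the bulb, 439 ± 41.8 in the hippocampus and 462 ± 78.1 in the cortex. Its cerebellum and cortex pair passed in DESeq2 (log2 -0.47, adjusted p = 0.0292) and in the KO libraries (-0.56, 0.0057). Unc13b averaged 19.4 ± 0.736 CPM in the cerebellum and 66.5 ± 11.5 in the hippocampus.

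Rims3, a short form of the RIM family, had 469, 477 and 464 CPM in the cerebellum, 257, 191 and 241 CPM in the bulb, 72.6, 72.6 and 91.2 CPM in the hippocampus and 376, 275 and 314 CPM in the cortex. The hippocampus lay apart below all other libraries. Rims1 was close in the cerebellum (293 ± 6.24 CPM) and cortex (279 ± 19.4) and averaged 59.6 ± 12.5 CPM in the bulb (bulb over cortex log2 -2.22, SE 0.16, edgeR adjusted p = 8.46e-07). Per length, Rims1 held 18.9% ± 0.72 of the family in the bulb and 63.5% ± 3.08 in the hippocampus. Rims3 held 67.9% ± 2.55 in the bulb and 24.6% ± 3.75 in the hippocampus. Shares of a family add to the whole, so these 2 are not separate observations. Rims2, another calcium channel partner, averaged 119 ± 14.5 CPM in the cerebellum, 59.3 ± 19.3 in the bulb, 51 ± 12.2 in the hippocampus and 96.8 ± 7.39 in the cortex. Bsn (bassoon), a giant scaffold, averaged 281 ± 74 CPM in the bulb and 499 to 611 CPM in the other regions.

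Rab3 GTPases sit on vesicles and bind RIM. Rab3b had 9.19, 9.6 and 9.43 CPM in the cerebellum, 155, 152 and 147 CPM in the bulb, 44.1, 48.6 and 51.8 CPM in the hippocampus and 82.6, 61.1 and 67.3 CPM in the cortex. The 4 regions did not overlap, and the cerebellum lay far below the bulb, whose mean was 16.1-fold higher (log2 -4.01 for cerebellum over bulb, SE 0.11, edgeR adjusted p = 2.74e-10). Rab3a, the major form per length with 72.3% to 86.6%, stayed between 380 ± 27.6 CPM in the bulb and 523 ± 65.9 CPM in the cortex. Per length, Rab3b held 1.27% ± 0.0884 of the family in the cerebellum and 18.2% ± 0.379 in the bulb. Rab3c, the third form, averaged 307 ± 84.9 CPM in the cerebellum, 267 ± 74.8 in the bulb, 527 ± 95.5 in the hippocampus and 548 ± 87.3 in the cortex. The lead of Rab3a depends on the length used, with 2226 bases of exon for Rab3a and 12049 for Rab3c. By mean CPM, Rab3c was above Rab3a in the hippocampus (474 for Rab3a) and the cortex (523), within the spread of the libraries.

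The vesicular glutamate transporter Slc17a7 (VGLUT1), used by cortical, hippocampal and granule cells, averaged 596 ± 86.7 CPM in the cerebellum, 567 ± 35.4 in the bulb, 1460 ± 180 in the hippocampus and 1290 ± 114 in the cortex. Excitatory neuron markers other than the 42 genes were Camk2a, Neurod2 and Neurod6. These 3 genes summed to 193 to 225 CPM in WT cerebellum and 809 to 862 CPM in WT bulb. In WT hippocampus the sum was 3770 to 5270 CPM, and in WT cortex 2950 to 3950 CPM. It holds no marker chosen for granule cells, so it is not a measure of excitatory neurons in the cerebellum. The part of these markers in the Slc17a7 levels was not tested. Slc17a6 (VGLUT2), typical of thalamus, brainstem and climbing fibre inputs, was uneven between libraries of the cerebellum and cortex. It had 89.7, 24.4 and 22.5 CPM in the cerebellum, 40, 36.4 and 36.2 CPM in the bulb, 22.6, 24.6 and 29.2 CPM in the hippocampus and 62.4, 33.8 and 66.7 CPM in the cortex. Library 1 of the KO cerebellum was high as well, with 60.5, 22.8 and 20.9 CPM. The difference between cerebellum and bulb was 0.28 with all libraries (edgeR adjusted p = 0.677) and -0.68 without cerebellum WT 1 (0.0448), so its direction depended on that library. Brainstem markers, 6 genes of which 3 were at 0 in all WT cerebellum libraries, summed to 49.3, 53.6 and 51.6 CPM there, and their part in the Slc17a6 values was not tested.

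Family make-up was tested over libraries for 11 families, 1 gene each, by an exact permutation test over all 369600 ways to allot the 12 WT libraries to 4 regions, adjusted over the 11. By this exact test, shares differed between regions in 9 families, with adjusted p = 0.000357 for Syt2 and Rims1 (each with the smallest p the test can give, 6.49e-05), 0.000714 for Syn1, 0.000952 for Vamp1, Cplx1 and Synpr, 0.00102 for Sv2b, 0.00179 for Unc13c and 0.00437 for Syngr3. The share of Rab3c (adjusted p = 0.0885) and of Slc17a6 (adjusted p = 0.205) missed the threshold of the exact test with all libraries. Both passed in a run that left out 1 library, Slc17a6 without cerebellum WT 1 (span 4.45 percentage points, exact test adjusted p = 0.00302) and Rab3c without hippocampus WT 2 (span 8.67, adjusted p = 0.0351). In the Rab3 family only the Rab3c share was tested, so its result does not cover the family as a whole. The Rab3b share, which was not tested, was 1.27% ± 0.0884 in WT cerebellum and 5.07% ± 0.613 in WT hippocampus. It was 6.63% ± 0.267 in WT cortex and 18.2% ± 0.379 in WT bulb (SD, n = 3 each). The widest spans between regions were 52.8 percentage points for Syt2, 44.5 for Rims1, 41.2 for Cplx1, 32.2 for Sv2b and 31.9 for Unc13c. In the KO libraries 39 of the 42 genes had the same top region as in WT and 32 the same order of all 4. These counts were not made over all genes, so they do not set the 42 apart.

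**Figure D2:**
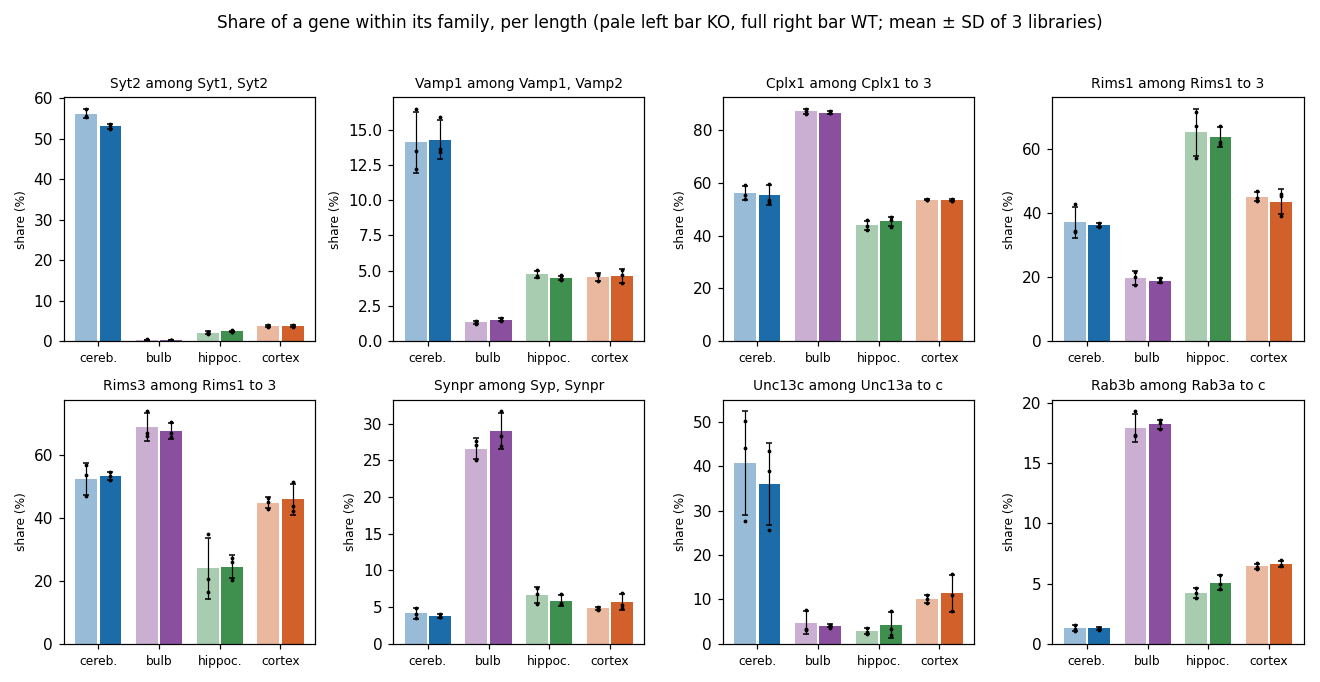
Share (%) of 1 gene in the summed level of its family per exon length, by region, with KO as the pale left bar and WT as the full right bar; bars are means, whiskers SD, dots the 3 libraries. Syt2 passes 50% in the cerebellum and stays under 5% elsewhere, and KO and WT bars of a region lie side by side within a few percentage points.

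Other genes of the pathway, from lists chosen with earlier results known, were set beside the 42. Of 81 further genes of the release machinery, 77 were tested and 63 differed between regions (81.8%, against 67.8% of all genes), and of 42 genes for transmitter loading and vesicle recycling 41 were tested and 28 did (68.3%). In the bulb Doc2g, a double C2 protein, exceeded the hippocampus by 6.25 on the log2 scale while the calcium sensor Doc2b (-3.70) and the Rab3 effector Rph3a (-3.42) lay below it. In the cerebellum Unc13d exceeded the cortex (3.18), while the calcium sensor Doc2a (-4.70) and the scaffold Rimbp2 (-3.94) lay below it. Among the loaders the zinc transporter Slc30a3 (-5.38) and the glutamate transporter Slc17a8 (-6.20) lay far below the cortex in the cerebellum, and the monoamine transporter Slc18a2 (2.25) was higher in the bulb than in the cortex.

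The second question was whether loss of Cdr1as moved these genes. None of the 42 passed in the cerebellum (0% of all genes called), the olfactory bulb (0%), the hippocampus (0%) or the cortex (0.0379%), in edgeR with all libraries. In the cerebellum, bulb and hippocampus edgeR called 0 genes of any kind, so the targeted Cdr1asG was not called there either. The result in those regions therefore cannot set the 42 genes apart from other genes or exclude a change in them. DESeq2 called 0 of 42 in each region as well, with 0.318% of all genes called in the cerebellum, 0.409% in the bulb, 0.238% in the hippocampus and 0.644% in the cortex, and limma-voom called 0 of 42 in each. Averaged over the 4 regions 0 of 42 passed as well in the fit without pairing, where 2.68% of 17266 genes did. In that fit 0 of 42 differed in their knockout effect between regions (0.0232% of all genes). At an unadjusted p under 0.05 there were 2 of 42 genes on average, against 14.0% of all genes. There were 0 in the cerebellum (5.48% of all genes), 2 in the bulb (5.33%), 3 in the hippocampus (5.16%) and 0 in the cortex (4.20%). The average effects had a median of 0.024 (log2, KO over WT; all genes -0.0012) and ran from -0.25 to 0.19. With the 24 libraries taken as independent, the median SE was 0.066. The 95% interval lay within ±0.5 for 36 of the 42 genes and within ±1 for 41. Libraries sharing genotype and number had a consensus correlation of 0.216 across regions, which these SEs and intervals do not take up. With the replicate block, which pairs KO and WT libraries of equal number in a region, 2 of the 42 genes passed on average (7.27% of all genes called).

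**Figure D3:**
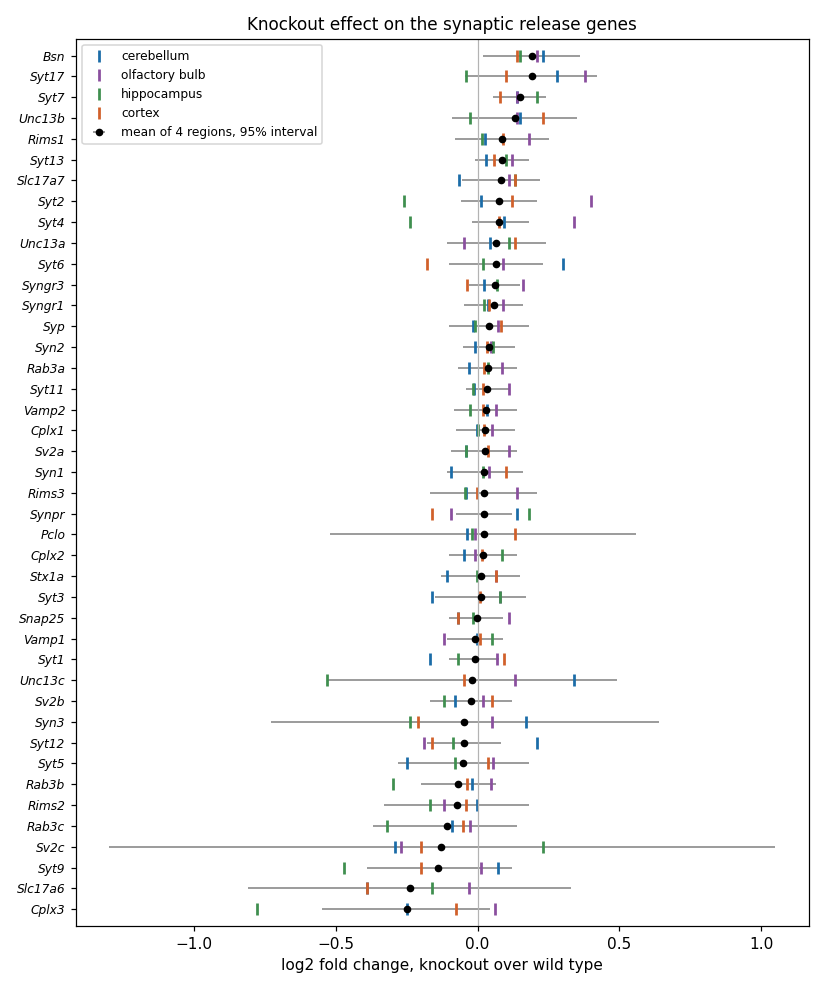
Log2 fold change of KO over WT for each of the 42 genes, with the mean of the 4 regions as a black point, its 95% interval as a gray line and the single regions as colored ticks. All means lie between -0.25 and 0.19, and the widest interval belongs to Sv2c.

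The 5 genes with the smallest p on average, none of which passed, were Syt7, Bsn, Syt13, Cplx3 and Syt17. Syt7 had 466, 567 and 524 CPM in KO cerebellum, against 460, 509 and 443 CPM in WT cerebellum, and 366, 415 and 389 CPM in KO bulb, against 378, 340 and 334 CPM in WT bulb. It had 490, 496 and 470 CPM in KO hippocampus, against 418, 448 and 391 CPM in WT hippocampus, and 399, 443 and 410 CPM in KO cortex, against 376, 444 and 358 CPM in WT cortex. KO was higher in 10 of the 12 pairs of equal number, and the groups did not overlap in the hippocampus. The average log2 was 0.15 (SE 0.046, 95% interval 0.053 to 0.24, edgeR adjusted p = 0.0962). It passed with the replicate block (0.15, adjusted p = 0.0166, with 7.27% of all genes called), in DESeq2 (0.15, 0.0354, with 4.58% called) and without cortex WT 2 (0.17, 0.0365, with 2.75% called).

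Bsn had 523, 607 and 629 CPM in KO cerebellum, against 496, 470 and 531 CPM in WT cerebellum, and 368, 256 and 364 CPM in KO bulb, against 343, 199 and 301 CPM in WT bulb. In the hippocampus it had 706, 553 and 602 CPM in KO and 637, 509 and 529 CPM in WT, and in the cortex 730, 596 and 712 CPM in KO and 625, 635 and 574 CPM in WT. KO was higher in 11 of 12 pairs, yet the groups overlapped in every region. The average log2 was 0.19 (SE 0.082, edgeR adjusted p = 0.282), and 0.19 with adjusted p = 0.00747 with the replicate block. Syt13 stood in edgeR at 0.085 (SE 0.045, adjusted p = 0.418, KO higher in 11 of 12 pairs), Cplx3 at -0.25 (SE 0.14, 0.464) and Syt17 at 0.19 (SE 0.11, 0.498).

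Within regions, none of the 42 passed in edgeR, and the values with the smallest p were these. In the cerebellum they were Bsn (0.23), Syt1 (-0.17), Syt12 (0.21), Syt6 (0.30) and Synpr (0.14), and Syt1 and Sv2b were the 2 of 42 genes whose groups did not overlap, both lower in KO (4.98% of all genes). In the bulb they were Syt4 (0.34), Syngr3 (0.16), Syt2 (0.40), Snap25 (0.11) and Syt7 (0.14), with 4 genes not overlapping, all higher in KO (5.83% of all genes). In the hippocampus they were Rab3b (-0.30), Syt4 (-0.24), Syt7 (0.21), Syt2 (-0.26) and Synpr (0.18), with Syt7 not overlapping and higher in KO (5.50% of all genes) and Rab3b and Syt4 not overlapping and lower (4.96%). In the cortex they were Sv2c (-0.20), Synpr (-0.16), Syt12 (-0.16), Syn3 (-0.21) and Slc17a6 (-0.39), with Sv2c and Syn3 not overlapping, both lower in KO (4.26% of all genes).

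Syt4 differed in opposite directions in the bulb and hippocampus, and neither difference passed. It had 173, 159 and 168 CPM in KO bulb, against 144, 124 and 122 CPM in WT bulb, and 187, 222 and 222 CPM in KO hippocampus, against 257, 241 and 244 CPM in WT hippocampus. The groups did not overlap in either region, and the difference between regions had an adjusted p = 0.885 in edgeR's quasi-likelihood test.

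Syt9 was the 1 gene that passed when libraries numbered 2 were left out. It had 4.88, 11.1 and 3.76 CPM in KO hippocampus, against 8.7, 8.86 and 9.93 CPM in WT hippocampus, so that KO library 2 lay above the WT libraries and the other KO libraries below them. Its hippocampal log2 was -0.47 with all libraries and -1.10 without both libraries numbered 2 (edgeR adjusted p = 0.0419, with 0.637% of all genes called). On average over the regions it was -0.14 (edgeR adjusted p = 0.716), -0.33 without the libraries numbered 2 (0.0223, with 1.15% of genes called) and -0.29 without hippocampus KO 2 (0.0323, with 2.35% called). Hippocampus KO 2 was the library with 250 CPM of thalamus markers, against 118 to 129 CPM in the other KO hippocampus libraries, and Rims3 was highest there too, with 52.3, 108 and 69.7 CPM in KO. The part of the thalamus markers in these values was not tested.

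**Figure D4:**
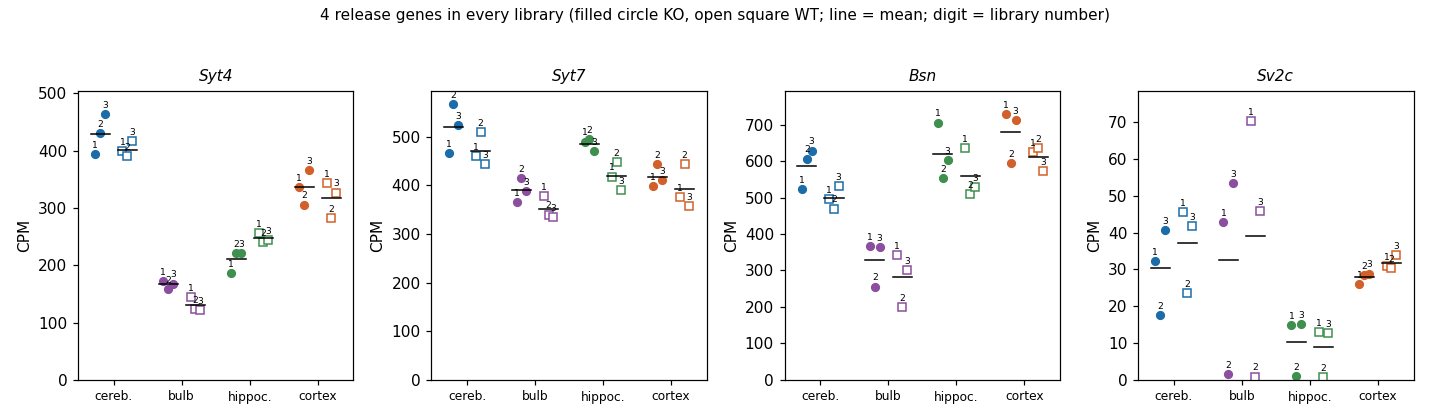
CPM of Syt4, Syt7, Bsn and Sv2c in each library, by region, with KO as filled circles left of WT as open squares, the library number above each point and the mean as a line. KO and WT of Syt4 do not overlap in the bulb (KO higher) and in the hippocampus (KO lower), and library 2 of Sv2c lies near 1 CPM in the bulb and hippocampus of both genotypes.

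Family shares did not move with the genotype past the threshold in any of the 11 families (exact permutation of the genotype labels within regions, 160000 ways, two-sided). The largest signal was a Syt2 share 0.731 percentage points higher in KO on average (exact permutation p = 0.0672, adjusted p = 0.739), and the next smallest adjusted p was 0.925. In the cerebellum the Syt2 share was 57.5%, 55.7% and 55.4% in KO and 52.4%, 53.2% and 53.7% in WT, groups that did not overlap.

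The wider pathway gave 1 call. Of the 77 further release genes tested 1 rose on average over the regions, 1.30% against 1.81% of all genes called higher, and of 41 loading and recycling genes 0 passed in edgeR, with 2 at an unadjusted p under 0.05. The gene was Sytl1, a synaptotagmin-like Rab27 effector of secretory cells, at 0.73 (SE 0.17, edgeR adjusted p = 0.0209). Its levels were low: 2.45 ± 0.474 CPM in KO and 1.34 ± 0.664 in WT cerebellum, 2.84 ± 0.924 in KO and 2.2 ± 0.337 in WT bulb, 1.54 ± 0.368 in KO and 0.935 ± 0.205 in WT hippocampus, and 1.7 ± 0.518 in KO and 0.851 ± 0.186 in WT cortex (SD, n = 3 each).

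Because Cdr1as carries sites for miR-7, the 3′ untranslated regions of the 42 genes were searched for its seed match. The mature miR-7 sequences from RefSeq (GRCm38.p6), shown because they define the match, share 1 seed, in capitals:
mmu-miR-7a-5p: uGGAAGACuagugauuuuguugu
mmu-miR-7b-5p: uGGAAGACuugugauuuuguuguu
The match searched was GTCTTCC on the transcript strand, which pairs with bases 2 to 8 of both, in the 1 coding transcript per gene taken from GENCODE M21 (GRCm38). That transcript was the one with the longest coding sequence. In Rims2 and Syt7 it ends at the stop codon, so 40 genes had letters to search. Of these 5 held the match, 12.5%, and 12% of 14980 tested genes with such letters did too. An antisense match was not searched. Cplx1 held 4 matches in 1575 bases, Syt2 held 3 in 5468 bases, and Cplx2, Rab3c and Syt6 held 1 each. Stretches of 30 bases with the match in capitals are shown for 4 of the 5 genes, 1 match each, with its start in the 3′ untranslated region:
Cplx1 (chromosome 5, match at base 501): gacctgctggaccattcgctctGTCTTCCt
Syt2 (chromosome 1, match at base 4473): tgtggcctgagtctgatggtggGTCTTCCa
Cplx2 (chromosome 13, match at base 2171): ttttatttcagagaagacagacGTCTTCCc
Syt6 (chromosome 3, match at base 2722): atgttgttaattactgctttgtGTCTTCCc
The Syt2 match is the 1 that also has an A opposite the first base of miR-7. Average log2 of KO over WT was 0.027 for Cplx1, 0.077 for Syt2, 0.018 for Cplx2, 0.065 for Syt6 and -0.11 for Rab3c, and none passed in edgeR. The 5 genes with a match had a median of 0.027 and the 37 without, Rims2 and Syt7 included, had 0.024. A match is a description of the letters and was not tested as a binding site.

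The last pattern ran across genotypes. In the 6 groups outside the cortex, chosen after the values were seen, the library numbered 2 was lowest of its group in all 6 for Sv2c, Syn3, Pclo, Unc13c, Rims2 and Rab3c, 14.3% of the 42 genes against 9.49% of all tested genes. Sv2c, an SV2 form of basal ganglia and other selected neurons, had 42.9, 1.67 and 53.5 CPM in KO bulb, against 70.3, 0.898 and 45.8 CPM in WT bulb. It had 15, 0.994 and 15.1 CPM in KO hippocampus, against 13, 0.782 and 12.6 CPM in WT hippocampus, and 26.1, 28.6 and 28.9 CPM in KO cortex, against 31, 30.3 and 33.9 CPM in WT cortex. Library 2 was thus far below both others in the bulb and hippocampus of each genotype and level with them in the cortex. Pclo (piccolo), the other giant scaffold, had 417, 199 and 540 CPM in KO cerebellum, against 475, 229 and 484 CPM in WT cerebellum, and 203, 68.1 and 160 CPM in KO bulb, against 194, 63.6 and 172 CPM in WT bulb. In the cortex, library 2 was also lowest for Pclo, with 298, 205 and 317 CPM in KO and 254, 199 and 292 CPM in WT, and for Rab3c, with 534, 479 and 582 CPM in KO and 554, 457 and 632 CPM in WT.

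As a median over the 6 groups, library 2 stood at 0.0703 of the mean of libraries 1 and 3 for Sv2c, 0.279 for Syn3, 0.387 for Pclo, 0.49 for Unc13c, 0.628 for Rims2 and 0.662 for Rab3c, against a median of 1.03 over all tested genes. The shortest of the 6, Unc13c, has 8796 bases of exon, yet Bsn, with 15938 bases, stood at 0.859 and Unc13b, with 22746 bases, at 0.833. Vamp1, with 10167 bases, and Synpr, with 9439 bases, were not lowered, at 1.06 and 1.05. Over the 42 genes the ratio and the exon length had a Spearman rho of -0.65, and over 16611 genes -0.30, as a description, in which the genes share the same libraries. RNA quality was not given in the labels, and its part in the pattern was not tested.

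**Figure D5:**
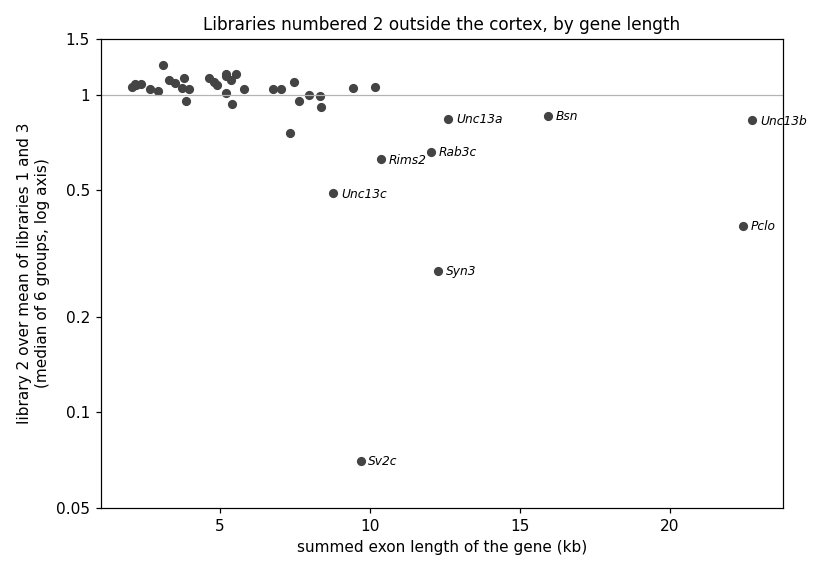
Ratio of library 2 to the mean of libraries 1 and 3, as the median of the 6 KO and WT groups outside the cortex (log axis), against summed exon length in kb, with 1 point per gene for the 42 genes. Genes under 7 kb lie between 0.938 and 1.24, and Sv2c, Syn3, Pclo, Unc13c, Rims2 and Rab3c lie lowest.

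The pattern touched the regional results of these genes. Without the WT libraries numbered 2, 38 of the 42 genes differed between regions (68.3% of all genes), and of 252 region comparisons 16 gained a call and 7 lost one. Sv2c, which had 0 of 6 pairs called with all libraries, was then higher in the bulb than in the hippocampus (log2 2.18, edgeR adjusted p = 6.22e-05, with 37.8% of all genes called) and the cortex (0.84, 0.00588, with 47.9%), and lower in the hippocampus than in the cortex (-1.34, 0.00295, with 17.1%). Pclo was then higher in the cerebellum than in the hippocampus (0.62, 0.00439, with 46.6%) and the cortex (0.81, 0.000901, with 54.2%), and Syn3, another synapsin, was lower in the cerebellum than in the bulb (-1.02, 0.000325, with 43.1%). The knockout effect of Sv2c remained the least certain of the 42, at -0.13 on average with an SE of 0.56.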

How the data were processed

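Poly(A) RNA from 24 libraries was sequenced after TRIzol extraction with a TruSeq Stranded mRNA kit, per the labels' protocols. The authors deposited a table of unnormalized gene counts for each library, made with STAR 2.5.1b, HTSeq 0.6.1p1 and bcl2fastq 2.17.1.14 on mm9, per the submitters' processing notes; the strand setting of the counting is not given in the sources used here. Counts per library ran from 21.1 M to 40.5 M. Counts that named no gene stayed out of library sizes and tests. They included 8.22% to 16.79% in no feature, 10.3% to 13.5% not uniquely aligned and 0.576% to 0.764% ambiguous.

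Genes with low counts were removed with edgeR's filterByExpr, and the rest were tested across all genes with edgeR 4.0.16 (TMM, quasi-likelihood) with Benjamini-Hochberg adjustment over all tested genes and a threshold of 0.05. DESeq2 1.42.0 and limma 3.58.1 were alternatives. CPM per kb and family shares used summed exon lengths from GENCODE M21 (GRCm38), matched by Ensembl ID, with no coordinate shared with mm9. The ranking of genes within a family depends on these lengths, which are the same for every region. Shares were tested by exact permutation over libraries. The procedures were tested on simulated data. The 42 genes and the other lists were chosen with earlier results of these data known. Genes were named where they passed, and otherwise as the 5 with the smallest p in a comparison. Of the alternatives, 3 were chosen after seeing the data: leaving out the libraries rich in choroid plexus markers, those rich in thalamus markers, and the WT libraries numbered 2.

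Equal replicate numbers went together between KO and WT, by the correlation of deviations from group means, in the cerebellum (0.235 to 0.546), bulb (0.166 to 0.668) and hippocampus (0.24 to 0.482) but not in every pair of the cortex (-0.071 to 0.553). Pairs of libraries of 1 group differed beyond counting noise, the chi-square divided by its degrees of freedom being 6.61 or more.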

Additional observations from a re-analysis of the deposited data

Results flagged for a closer look

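Syt4 was singled out because its KO and WT libraries did not overlap in 2 regions and lay in opposite directions. Its log2 of KO over WT was 0.34 in the olfactory bulb and -0.24 in the hippocampus. The difference between regions had an adjusted p = 0.885 in edgeR's quasi-likelihood test and so failed the correction over all genes. Neuron markers (6 genes) summed to 2890 to 3350 CPM in KO bulb 2950 to 3400 CPM in WT bulb, 3250 to 3530 CPM in KO hippocampus and 3350 to 4120 CPM in WT hippocampus, and their part in the Syt4 values was not tested.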

How the results depend on the processing

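Counts of the 42 genes called for the knockout were 0 in each region and for the interaction in every alternative run, except 1 in the hippocampus without the libraries numbered 2 (Syt9). Averaged over regions the count was 1 in DESeq2 (Syt7), 2 with the replicate block (Syt7 and Bsn), 1 without the libraries numbered 2 (Syt9), and 0 to 1 when 1 library was left out. The replicate block changed no other knockout call; over the WT regions it added 19 of 252 calls and removed 0. There, pairing was taken to hold where every equal-numbered pair correlated above 0.1: 5 of the 6 region pairs met this (0.13 to 0.57), and cerebellum with hippocampus did not (lowest 0.0698), so the regions were not treated as paired. Syt7 passed with the block in cerebellum over cortex (0.26, edgeR adjusted p = 0.0128) and bulb over hippocampus (-0.25, 0.0197), and its cerebellum and cortex pair passed in DESeq2, limma-voom, library totals and KO libraries too. The hippocampus and cortex count of 14 ran from 8 to 16 when 1 library was left out, and was 7 without the libraries rich in choroid plexus markers and 8 without those rich in thalamus markers. Slc17a6 in cerebellum over bulb ran from -0.68 to 0.61 with 1 library left out, and Cplx3 in bulb over hippocampus was 0.63 in KO libraries, against -0.22 in WT libraries. The span of the Slc17a6 share ran from 4.45 to 7.54 percentage points and that of the Rab3c share from 5.25 to 8.67 with 1 library left out, and each passed the threshold in 1 of those runs, Slc17a6 at 4.45 and Rab3c at 8.67. The cause was not tested. Low genes such as Cplx3 and Sytl1, and the 3 libraries per group, limit what could be detected.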
